A study of Mus musculus with 8 samples.

Results

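The 10 genes described here make, break down, bind or respond to retinoic acid. Rdh10, Aldh1a1 and Aldh1a2 encode enzymes of synthesis, Cyp26a1 and Cyp26b1 enzymes of breakdown, Crabp1 and Crabp2 binding proteins, Rara and Rarg receptors, and Stra8 is a germ cell gene that retinoic acid switches on. They were taken by name from 24651 genes, with the counts of all listed transcripts of a symbol summed. All 10 had counts, and all 10 passed the low-count filter that left 13507 genes for testing. RNA-seq had been done on 8 samples, each from 1 pair of testes of a mouse at postnatal day 12, of which 4 were labelled wild type and 4 Morc2b-/-. Both genotypes were of a mixed strain background. In the mutant, the exon of Morc2b that holds the coding region was replaced by a neomycin resistance cassette, in a line derived from 1 clone of V6.5 embryonic stem cells. The series' design text calls the controls Morc2b+/-, whereas the sample labels and the methods call them wild type, and the sample labels are followed here.

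Retinoic acid is made from vitamin A in 2 steps. Retinol is oxidized to retinal by retinol dehydrogenases, and retinal is oxidized to retinoic acid by retinaldehyde dehydrogenases. CYP26 enzymes hydroxylate and so inactivate it, and cellular retinoic acid-binding proteins bind it inside cells. In the nucleus retinoic acid binds RAR receptors, which pair with RXR receptors on DNA. In the juvenile testis retinoic acid drives spermatogonia to differentiate and germ cells to enter meiosis, the latter through STRA8. Morc2b is a germ cell gene of the MORC family of chromatin proteins, and the comparison asked whether transcript levels differed in testes without it.

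The samples held between 27144796 and 36941755 reads counted on transcripts. The targeted gene was read at 428, 443, 24 and 1272 counts in the samples labelled wild type 1 to 4, and at 10, 10, 115 and 2 counts in those labelled Morc2b-/- 1 to 4. The library labelled wild type 3 was therefore below the library labelled Morc2b-/- 3, and sample names below refer to the labels. Markers of other cells differed between samples of 1 genotype. The summed level of 6 epididymis markers, of which Lcn5 was at 0 in every sample, was 249.5 CPM (counts scaled to the TMM-normalized library size) in wild type 1 and 0.55 to 13.8 CPM in the other samples. The summed level of 6 peritubular myoid markers was 1801 CPM in wild type 1 and 802 to 1023 CPM elsewhere. Most of this sum was Acta2, with 212633 counts over the 8 samples, against 25018 for Tagln, the next, and 16 for Myh11. The 6 spermatid markers summed to 149 CPM in wild type 1, 303 CPM in Morc2b-/- 3 and at most 33.4 CPM in the others. Leydig cell markers (6 listed) summed to 119 to 593 CPM in wild type and 123 to 650 CPM in Morc2b-/-. They were highest in wild type 3 and Morc2b-/- 1. Sertoli cell markers (8 listed) summed to 1707 to 1979 CPM in wild type and 1837 to 2064 CPM in Morc2b-/-, and none of the 10 marker lists separated the genotypes. Some listed markers were hardly counted, with 1 count for Gata4 (Sertoli), 5 for Insl3 (Leydig) and 1 for Gfra1 (undifferentiated spermatogonia) over the 8 samples. Wild type 1 was the highest sample for 4 of the 10 retinoic acid genes and the lowest for 3. The part of these other cells in the values below was not tested.

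None of the 10 genes was called different between genotypes after adjustment. In edgeR's quasi-likelihood test, 0 of 10 had a Benjamini-Hochberg adjusted p under 0.05, against 0% of the 13507 genes tested, and the smallest adjusted p of the 10 was 0.9998. DESeq2 also called 0 of the 10. Morc2b, the deleted gene, was not called either, at a log2 fold change of -4.09 and an adjusted p of 0.9998 in edgeR. A gene that was not called is therefore not shown to be unchanged. Of the 10, 7 were higher and 3 lower on average in Morc2b-/- testes, with a median log2 fold change of 0.10 and a range of -0.29 to 0.34. The median over all tested genes was 0.0022. The genotypes overlapped in CPM for all 10 genes, while 1.29% of all tested genes did not overlap. At an unadjusted p under 0.05 there was 1 gene of the 10, Aldh1a2, whereas 1.84% of all tested genes had such a p. In whole testes, fewer cells of a type and less RNA per cell cannot be told apart. Without the libraries labelled wild type 3 and Morc2b-/- 3, and without wild type 1 and Morc2b-/- 3, the counts at an adjusted and at an unadjusted p under 0.05 were again 0 and 1 of 10, and the median log2 fold change was 0.13 and 0.033, respectively. These last alternatives were chosen after seeing the data.

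The genes spanned more than 3 orders of magnitude in level. Per kilobase of exon, averaged over the 8 samples, Aldh1a1 stood first at 660.1 ± 61.1 CPM (SD, n = 8), followed by Stra8 at 166 ± 25.1 CPM and Aldh1a2 at 92.6 ± 15.5 CPM. Crabp1, at 17.4 ± 2.03 CPM per kilobase, and Rdh10, at 13.2 ± 1.63 CPM per kilobase, overlapped in range. Cyp26a1 followed at 5.82 ± 1.23 CPM and Crabp2 at 1.71 ± 0.307 CPM per kilobase. The receptors Rarg (0.558 ± 0.156 CPM per kilobase) and Rara (0.478 ± 0.083 CPM per kilobase) overlapped in range, and Cyp26b1 was last at 0.158 ± 0.038 CPM per kilobase. All other neighbors in this order were apart in range, and in 8 of 8 samples the upper gene of each such pair was the higher. The deposited counts leave out reads shared by several transcripts, so that the levels of genes with several listed transcripts (Rara, Rarg, Cyp26b1 and Crabp1) are understated by an unknown amount. With the length of the longest transcript in place of all exons, Rdh10 stood at 15.3, Crabp2 at 2.43, Rarg at 0.777 and Rara at 0.645 CPM per kilobase, and the order was unchanged.

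**Figure D1:**
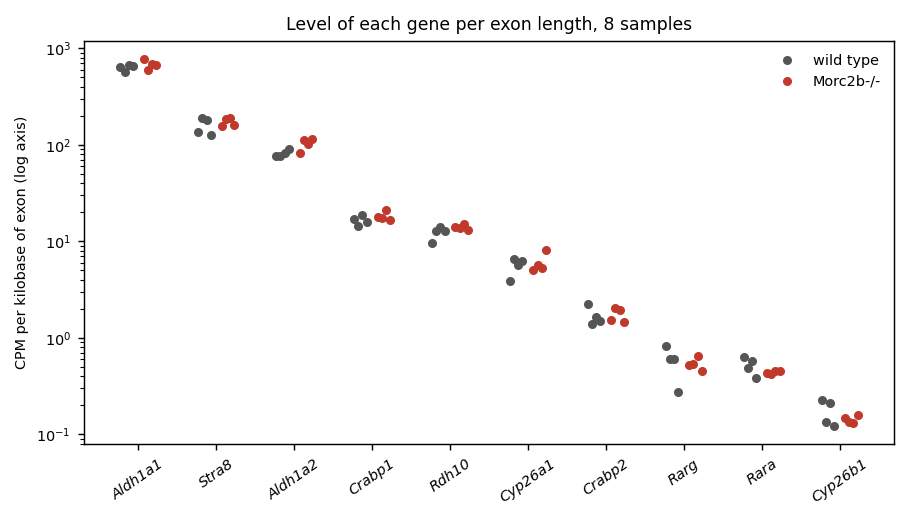
Level of each retinoic acid gene in the 8 samples, in CPM per kilobase of exon on a log axis, ordered by the mean, with 1 point per sample (grey, wild type; red, Morc2b-/-). The points run from about 660 for Aldh1a1 to 0.158 for Cyp26b1 on average, and within every gene the points of the genotypes overlap.

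Synthesis begins with RDH10, the retinol dehydrogenase that makes retinal from retinol. Rdh10 lies on the plus strand of chromosome 1 (NCBIM37, 16095855 to 16123815). It was read at 40.1, 53.9, 58.8 and 53.1 CPM in wild type 1 to 4 and at 59.0, 57.1, 62.7 and 54.5 CPM in Morc2b-/- 1 to 4. Wild type 1 was the lowest sample, and Morc2b-/- 2 and 4 lay below wild type 3. The means were 51.5 ± 7.96 CPM in wild type and 58.3 ± 3.46 CPM in Morc2b-/- (SD, n = 4 each). The log2 fold change was 0.18 ± 0.11 (SE), with a 95% confidence interval of 0.950 to 1.35 in fold, and did not pass the edgeR test (unadjusted p = 0.142) or the exact two-sided permutation test (p = 0.143). Without wild type 1 the log2 fold change was 0.079.

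Aldh1a1 encodes the retinaldehyde dehydrogenase found in Sertoli cells and lies on the plus strand of chromosome 19 (20676451 to 20717952). With 346261 counts over the 8 samples it was the most deeply read of the 10. How far reads shared with its close relative Aldh1a7 alter the count of Aldh1a1 was not measured. Its levels were 1308.5, 1180.2, 1374 and 1362 CPM in wild type 1 to 4 and 1591, 1226, 1420.1 and 1380.4 CPM in Morc2b-/- 1 to 4. The highest sample was Morc2b-/- 1, but Morc2b-/- 2 was lower than wild type 1, 3 and 4. The means were 1306 ± 88.6 and 1404 ± 149.9 CPM, and the log2 fold change was 0.10 ± 0.084, with an interval of 0.942 to 1.23 in fold (unadjusted edgeR p = 0.246, exact permutation p = 0.314). A difference larger than the upper bound is outside the 95% interval of these samples. Leaving out Morc2b-/- 1 brought the log2 fold change down to 0.038.

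Aldh1a2 encodes a second retinaldehyde dehydrogenase, known from germ cells of the testis, and lies on the plus strand of chromosome 9 (71063596 to 71144050). It was read at 174, 175, 187 and 205 CPM in wild type 1 to 4 and at 188, 257, 231 and 259.5 CPM in Morc2b-/- 1 to 4. In Morc2b-/- 2, 3 and 4 it was above every wild type sample, whereas Morc2b-/- 1 fell inside the wild type range, above wild type 1, 2 and 3 and below wild type 4. The means were 185 ± 14.4 and 234 ± 33.0 CPM. On the log2 scale the fold change was 0.34 ± 0.10, a ratio of 1.26 with a 95% interval of 1.07 to 1.49. The unadjusted edgeR p was 0.010 and the adjusted p 0.9998, and the exact permutation p was 0.057, so the difference did not pass either threshold. The unadjusted p of edgeR or DESeq2 was under 0.05 in 16 of 16 alternative settings, and the log2 fold change ranged from 0.28 to 0.43. This p ran from 0.00048 without Morc2b-/- 1, the mutant sample inside the wild type range, to 0.046 without wild type 1 and Morc2b-/- 3. These settings refit the same samples or a part of them, so they are not independent support. The exact permutation p with a prior count of 0.5 was again 0.057. The summed level of leptotene and zygotene spermatocyte markers (10 listed) ranged from 2086 to 3327 CPM in wild type and from 1924 to 3619 CPM in Morc2b-/-, and that of 6 pachytene markers from 22.7 to 249 CPM and from 25.5 to 142 CPM.

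The balance between the enzymes was compared as a ratio of levels per kilobase. Aldh1a1 exceeded Aldh1a2 by 7.79 ± 0.478 times in wild type and 6.80 ± 1.78 times in Morc2b-/-, from 5.26 in Morc2b-/- 2 to 9.31 in Morc2b-/- 1 (exact permutation p = 0.314). The mutant samples were the more spread, and the genotypes overlapped. The summed synthesis enzymes Aldh1a1 and Aldh1a2 exceeded the summed breakdown enzymes Cyp26a1 and Cyp26b1 by 129 ± 32.8 times in wild type and 132 ± 30.2 times in Morc2b-/- (exact permutation p = 0.914). These are ratios of transcript levels and not of enzyme activity, and the counts of Cyp26b1 leave out reads shared by its transcripts. The counts of Aldh1a1 are uncertain for reads that also fit Aldh1a7.

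**Figure D2:**
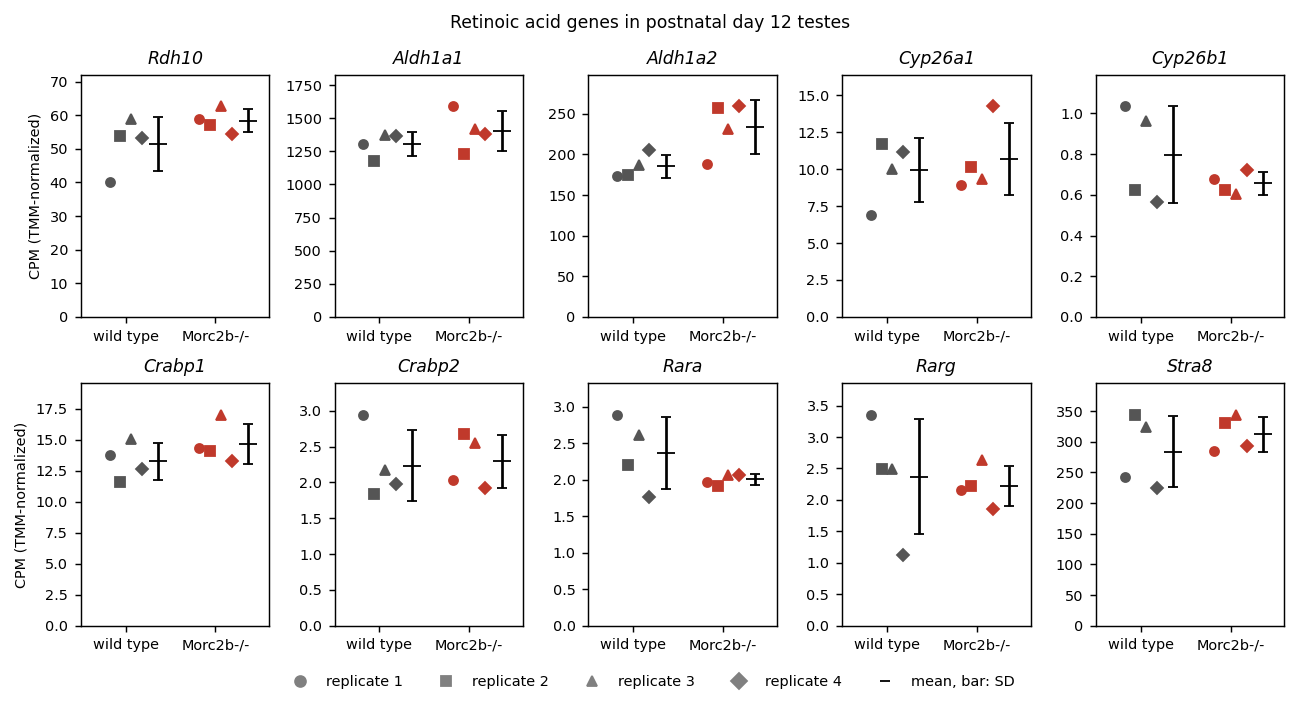
TMM-normalized CPM of the 10 retinoic acid genes in each sample (marker shape, replicate number; grey, wild type; red, Morc2b-/-), with the mean and SD of each genotype in black and each axis starting at 0. The genotypes overlap in every panel. For Aldh1a2, 3 of the 4 mutant samples lie above the highest wild type sample at 205 CPM, and for Rarg wild type 4 is the lowest sample at 1.13 CPM.

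Breakdown rests on the cytochromes CYP26A1 and CYP26B1. Cyp26a1 is also a classical target of the receptors. It lies on the plus strand of chromosome 19 (NCBIM37, 37772298 to 37776018). Its levels were 6.87, 11.7, 9.999 and 11.2 CPM in wild type 1 to 4 and 8.95, 10.2, 9.34 and 14.3 CPM in Morc2b-/- 1 to 4. The lowest sample was wild type 1 and the highest Morc2b-/- 4, which differed 2.08-fold, and the other samples of both genotypes lay between 8.95 and 11.7 CPM. The means were 9.94 ± 2.17 and 10.7 ± 2.44 CPM. Its log2 fold change of 0.10 ± 0.20 had an interval of 0.782 to 1.48 in fold (unadjusted edgeR p = 0.620, exact permutation p = 0.657). Its direction turned with single libraries, to -0.038 without wild type 1 and -0.068 without Morc2b-/- 4.

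Retinoic acid receptors bind direct repeats of a short half-site. The promoter windows of RefSeq (GRCm38.p6, 250 bases before to 50 after each start) were searched on both strands for the half-site AGGTCA and its variants, spelled AGTTCA or GGGTCA or GGTTCA, in direct repeats with a spacer of 5 (DR5) or 2 (DR2) bases. Of 32851 windows, 32 (0.0974%) held a DR5 and 88 (0.268%) a DR2, while 43.7% held a half-site. There were 13 windows for 8 of the 10 genes, without Rdh10 and Crabp2. In these spellings, the only one of the 8 genes with a DR5 was Cyp26a1, 32 to 16 bases before the start, and none had a DR2. Repeats with other spellings of the half-site were not searched for. Among the 58 other genes of the pathway listed, as far as their windows were searched, Rarb had a DR5, 53 to 37 bases before its start. Rarb is the receptor gene in which such an element is well known. Ttr was not searched, nor was Gm4969, which was not matched to a counted gene. Both stretches are shown because they are the DR5 matches among the genes searched, on the strand of the gene with the half-sites in capitals. In Cyp26a1 the repeat reads on the other strand.
Cyp26a1, chr19:37697770-37697798, plus strand: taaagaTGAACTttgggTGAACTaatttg
Rarb, chr14:16575507-16575535, minus strand: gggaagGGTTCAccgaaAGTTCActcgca
A match is a description of these letters, and binding was not measured in the data used here.

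Cyp26b1 encodes the breakdown enzyme of Sertoli and peritubular cells, which shields fetal germ cells from retinoic acid, and lies on the minus strand of chromosome 6 (84521938 to 84543740). It had only 186 counts over the 8 samples, of which 184 fell on 1 of its 2 listed transcripts. Its levels were 1.04, 0.62, 0.96 and 0.57 CPM in wild type 1 to 4 and 0.68, 0.62, 0.60 and 0.72 CPM in Morc2b-/- 1 to 4. Wild type 1 and 3 were higher than every Morc2b-/- sample, and wild type 4 was lower than all of them. The means were 0.797 ± 0.237 and 0.656 ± 0.055 CPM, with a log2 fold change of -0.29 ± 0.25 and an interval of 0.557 to 1.21 in fold (unadjusted edgeR p = 0.277, exact permutation p = 0.371). The log2 fold change was -0.13 without wild type 1, the sample with the highest myoid and epididymis marker sums. The ratio of Cyp26a1 to Cyp26b1 per kilobase was 36.0 ± 16.6 in wild type and 42.1 ± 7.06 in Morc2b-/- (exact permutation p = 0.400). Reads shared by the 2 listed transcripts of Cyp26b1 are not counted, so this ratio is overstated by an unknown amount.

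The cellular binding proteins differed in level by about an order of magnitude. Crabp1 (chromosome 9, plus strand, 54612555 to 54620917) was read at 13.8, 11.6, 15.0 and 12.6 CPM in wild type 1 to 4 and at 14.3, 14.1, 16.99 and 13.3 CPM in Morc2b-/- 1 to 4. Morc2b-/- 3 was the highest sample, and the other 3 mutant samples lay inside the wild type range. The means were 13.2 ± 1.499 and 14.7 ± 1.61 CPM, and the log2 fold change was 0.15 ± 0.12, with an interval of 0.922 to 1.33 in fold (unadjusted edgeR p = 0.240, exact permutation p = 0.257). It was 0.070 without Morc2b-/- 3 and 0.090 without wild type 2. All 3585 of its counts were on 1 of its 2 listed transcripts.

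Crabp2 (chromosome 3, plus strand, 87752588 to 87757298) was read at 2.94, 1.83, 2.18 and 1.98 CPM in wild type 1 to 4 and at 2.04, 2.68, 2.55 and 1.93 CPM in Morc2b-/- 1 to 4. The highest and the lowest samples were both wild type. The log2 fold change was 0.039 ± 0.21, with an interval of 0.744 to 1.42 in fold (unadjusted edgeR p = 0.853, exact permutation p = 0.857), and its sign depended on single samples. It turned to -0.041 without wild type 2, -0.017 without wild type 4, -0.042 without Morc2b-/- 2 and -0.014 without Morc2b-/- 3. Without wild type 1 it was 0.20. Per kilobase, Crabp1 exceeded Crabp2 by 9.99 ± 1.59 times in wild type and 10.7 ± 1.34 times in Morc2b-/- (exact permutation p = 0.514). The counts of Crabp1 leave out reads shared by its listed transcripts, so this ratio is understated by an unknown amount.

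Of the receptors, RARA is known from Sertoli cells and RARG from spermatogonia. Rara (chromosome 11, plus strand, 98789132 to 98836256) had 559 counts, 550 of them on 1 of 4 listed transcripts. Its levels were 2.89, 2.20, 2.61 and 1.76 CPM in wild type 1 to 4 and 1.97, 1.92, 2.06 and 2.06 CPM in Morc2b-/- 1 to 4. The mutant samples lay close together inside the wild type range, above wild type 4 and below the other wild type samples. The means were 2.36 ± 0.492 and 2.004 ± 0.071 CPM. Its log2 fold change was -0.24 ± 0.19, with an interval of 0.633 to 1.14 in fold (unadjusted edgeR p = 0.233, exact permutation p = 0.286), and -0.13 without wild type 1.

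Rarg (chromosome 15, minus strand, 102065369 to 102087948) had 592 counts, 391 and 201 on its 2 listed transcripts. Its levels were 3.35, 2.49, 2.50 and 1.13 CPM in wild type 1 to 4 and 2.17, 2.22, 2.64 and 1.86 CPM in Morc2b-/- 1 to 4. Wild type 1 was the highest and wild type 4 the lowest sample, 2.96-fold apart, which was the widest range of the 10 genes. The means were 2.37 ± 0.919 and 2.22 ± 0.320 CPM, with a log2 fold change of -0.095 ± 0.30 and an interval of 0.586 to 1.49 in fold (unadjusted edgeR p = 0.759, exact permutation p = 1). Without wild type 1 the log2 fold change turned to 0.12. The other receptors could not be compared. Rxra, with 3 listed transcripts, had 2 counts in all and Rxrb, with 4, had 0, Rarb had 56 and Rxrg 14. A count of 0 or near 0 for a gene whose transcripts share most of their sequence does not measure its expression.

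Stra8, the germ cell gene that retinoic acid induces before meiosis, lies on the plus strand of chromosome 6 (NCBIM37, 34870163 to 34889342). It was read at 243, 344, 324 and 225 CPM in wild type 1 to 4 and at 284, 330.3, 343 and 293 CPM in Morc2b-/- 1 to 4. Wild type 1 and 4 were lower than every Morc2b-/- sample, but wild type 2 was the highest of all, and all the mutant samples lay inside the wild type range. The means were 284 ± 58.6 and 312.5 ± 28.5 CPM. The log2 fold change was 0.14 ± 0.14, with an interval of 0.887 to 1.37 in fold (unadjusted edgeR p = 0.344, exact permutation p = 0.371). It ranged from 0.038 without wild type 4 to 0.24 without wild type 2. The SD of its log2 CPM over the 8 samples was above that of 95.4% of the 500 genes nearest in mean CPM. For Aldh1a2 this share was 94.8%, and for the other 8 genes it was between 22.4 and 79.4%.

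The Stra8 window of RefSeq held neither a DR5 nor a DR2 in the 4 half-site spellings searched. It held 2 separate half-sites on the plus strand, which are shown, in capitals, for comparison with the repeat of Cyp26a1. They lay 194 to 189 and 38 to 33 bases before the start. The letters gggtga, a spelling that was not searched, stand 2 bases before the first of them. The search therefore does not show that the window lacks a DR2 in other spellings.
Stra8, chr6:34920743-34920770, GRCm38.p6, plus strand: atggggtgaaaAGGTCAtcttgctcctt
Stra8, chr6:34920899-34920926, GRCm38.p6, plus strand: cctggggtaccAGGTCAgttttttacct

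**Figure D3:**
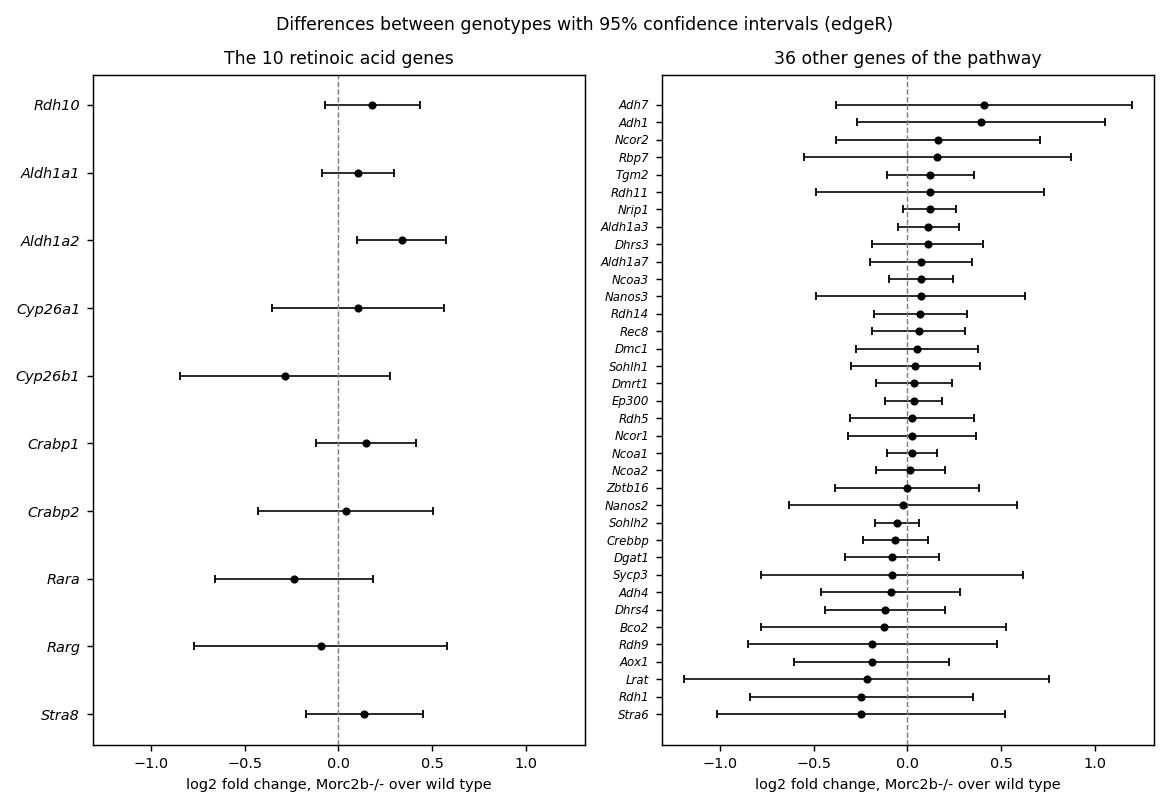
Log2 fold change of Morc2b-/- over wild type testes with its 95% confidence interval from edgeR, for the 10 retinoic acid genes (left) and 36 of the 37 other tested genes of the pathway (right). The interval of Aldh1a2 (0.34 ± 0.10, SE) lies right of 0, and the intervals of the other 9 genes at left and of the 36 genes at right include 0.

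The rest of the pathway was examined with a list of 58 genes, of which 37 passed the low-count filter. None of the 37 passed the adjusted threshold in edgeR or DESeq2, and 0 had an unadjusted p under 0.05 in either. Of the 37, 23 were higher and 14 lower on average in Morc2b-/- testes, with a median log2 fold change of 0.033 and a range of -0.25 to 0.41. This median moved with single libraries, to -0.0015 without wild type 1, 0.0031 without Morc2b-/- 1 and 0.0069 without Morc2b-/- 3, and was -0.012 without wild type 1 and Morc2b-/- 3. In 1 of the 37 the genotypes did not overlap, against 1.29% of all genes tested. This was Aldh1a3, a further retinaldehyde dehydrogenase, with 22.6, 21.1, 22.6 and 23.1 CPM in wild type 1 to 4 and 23.3, 23.3, 25.0 and 24.9 CPM in Morc2b-/- 1 to 4. The difference between the nearest samples of the genotypes was small, the log2 fold change was 0.11 ± 0.073, and the unadjusted edgeR p was 0.158.

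By role, of 4 tested genes of retinol uptake and storage 1 was higher and 3 lower on average. Dgat1, an acyltransferase that can esterify retinol and the most abundant of them by CPM, had means of 99.4 ± 11.8 and 93.9 ± 11.8 CPM. Of 10 dehydrogenases and reductases acting on retinol or retinal, 6 were higher and 4 lower. Rdh11, a retinal reductase, was the most abundant by CPM, though not per kilobase of exon, at 39.5 ± 12.1 and 42.9 ± 14.4 CPM. Adh1, an alcohol dehydrogenase, had a log2 fold change of 0.39 ± 0.29 but ranged from 25.4 to 50.3 CPM in wild type and from 24.7 to 57.0 CPM in Morc2b-/-. Aldh1a7, a close relative of Aldh1a1, stood at 49.2 ± 8.69 and 51.7 ± 2.51 CPM. The counts of both genes are uncertain for reads that fit either, which were not measured. Bco2, a carotenoid cleavage enzyme, and Rbp7, a retinol-binding protein, were low, at 1.73 ± 0.531 and 1.59 ± 0.486 CPM and at 0.667 ± 0.254 and 0.744 ± 0.172 CPM, respectively.

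All 8 coregulators of nuclear receptors passed the filter, and 7 were higher and 1 lower on average. The coactivator Ep300, the most abundant by CPM, had means of 371 ± 29.1 and 379.9 ± 19.99 CPM. Of 6 tested genes known to respond to retinoic acid, 4 were higher and 2 lower. Rec8, a meiotic cohesin subunit that retinoic acid induces, stood at 82.1 ± 10.1 and 85.7 ± 9.85 CPM. Sycp3, a synaptonemal complex component, stood at 479 ± 164 and 452 ± 172 CPM, and varied from 267 to 667 CPM between samples. Kit could not be compared, with 2 counts over its 2 listed transcripts. Of 4 regulators that hold back the response, 2 were higher and 2 lower, and Dmrt1, which restrains Stra8 in spermatogonia, had means of 408 ± 46.0 and 418 ± 33.6 CPM.

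**Figure D4:**
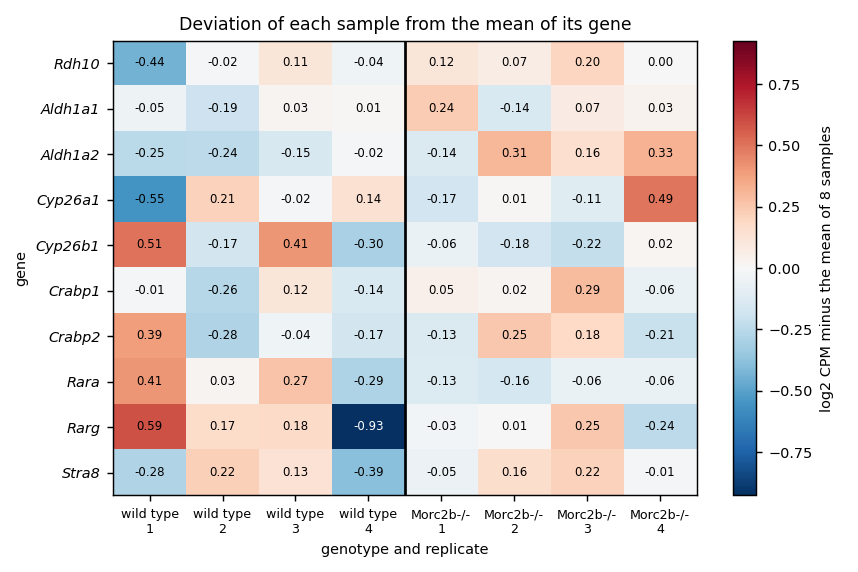
Deviation of log2 CPM in each sample from the mean of the 8 samples, for each retinoic acid gene (rows) and sample (columns, wild type left of the line), red above and blue below the mean. Wild type 1 was highest for Cyp26b1 (0.51), Rara (0.41), Rarg (0.59) and Crabp2 (0.39), and lowest for Rdh10 (-0.44), Aldh1a2 (-0.25) and Cyp26a1 (-0.55).

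The map of deviations from the mean showed differences between samples of 1 genotype in every gene. Wild type 1 was the highest sample for Cyp26b1, Rara, Rarg and Crabp2, and the lowest for Rdh10, Aldh1a2 and Cyp26a1. Wild type 4 was the lowest for 4 genes, Stra8, Cyp26b1, Rara and Rarg. Its deviation for Rarg, at -0.93 on the log2 scale, was the largest of the 80 values. Wild type 2 was the lowest for Aldh1a1, Crabp1 and Crabp2. How often a wild type sample is the lowest over all tested genes was not counted, so the lowest samples are given only as a description.

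For each gene, the genes that varied most like it over the 8 samples were taken from all tested genes by Pearson's r of log2 CPM. These r are the highest of many and are given as a description without a test. Stra8 varied most like Ncoa3 (r = 0.97), a nuclear receptor coactivator on the pathway list above, and then Gabrd (0.96) and AA388235 (0.96). Aldh1a1 varied most like Usp22 (0.98), Slc30a10 (0.98) and Gm7694 (0.96), and Aldh1a2 like Mmgt1 (0.98), Yy2 (0.95) and Cmtr2 (0.95). Rdh10 varied most like Car8 (0.99), Pot1a (0.97) and Cdh2 (0.97). The nearest genes to Cyp26a1 were an unmatched noncoding transcript (0.96), Tigd3 (0.95) and Smarca5 (0.94). Cyp26b1 was nearest to Cars (0.94), and it shared Slc29a1 and Adrm1 with Rara, whose nearest gene was Dgkb (0.97). Rarg varied most like Card19 (1.00), Rfng (0.98) and E130309D02Rik (0.97), Crabp1 like the ribosomal protein gene Rps18 (0.97), Cox8a (0.96) and Tram1l1 (0.95), and Crabp2 like Kcnn1 (0.97), Sbf1 (0.95) and Clpb (0.95).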

How the data were processed

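RNA-seq libraries (TruSeq Stranded mRNA, NextSeq 500) were made from testes of 4 wild type and 4 Morc2b-/- mice, 1 pair of testes per sample. Reads were mapped by the authors to NCBI37/mm9 with Tophat, and the submitters' processing notes name Cufflinks and Cuffdiff. The authors deposited raw read counts per RefSeq transcript, neither normalized nor pooled. Which program counted the reads, with what strand setting and which annotation release, is not given in the sources used here. The files also hold 5 tally lines that name no gene, with 66.6 to 68.4% of all tallied reads. They were left out. Of uniquely aligned reads, 26.8 to 28.8% were tallied as ambiguous and are in no transcript's count.

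Of 35819 transcripts, 35522 were matched to a symbol with RefSeq's gene table (GRCm38.p6), 297 were kept as they were, and counts were summed by symbol. The 2 genotypes were tested against each other in R 4.3.3 with edgeR 4.0.16 (TMM, filterByExpr by genotype, glmQLFit and glmQLFTest, genotype only), with Benjamini-Hochberg adjustment over all genes tested at a threshold of 0.05. CPM are TMM-normalized, the SE is the log2 fold change over the square root of F, and exact two-sided permutation tests used log2 CPM with a prior count of 2 over 70 arrangements of the labels (smallest p 0.0286). The edgeR p-values set the difference between genotypes against the spread between samples, which edgeR estimates in part from all tested genes. The permutation p is the share of arrangements with a difference at least as large. Exon lengths and gene positions are from GENCODE vM1 on NCBIM37, the authors' build, and promoter windows from RefSeq.

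The 10 genes and the lists were chosen with earlier results of these data known. All 10 genes were named. Of the pathway list any gene could be named, and those without overlap, with an unadjusted p under 0.05, or with the highest mean CPM in their role always were. A single further gene of the pathway list is included in its counts but is neither named nor drawn here. The 3 genes most like each gene were named by r. Samples with the same number in both genotypes did not consistently deviate together (r = -0.16, 0.24, -0.32 and 0.45 for numbers 1 to 4). The highest r were between different numbers, 0.61 for wild type 1 with Morc2b-/- 3 and 0.52 for wild type 3 with Morc2b-/- 1. Alternatives were RLE normalization, DESeq2 1.42.0, testing without the low-count filter or with a minimum of 10 counts in each sample, the replicate number as a block, transcripts as units, leaving out each sample in turn, and a prior count of 0.5. Other time points and assays of the study were not analysed here.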

Additional observations from a re-analysis of the deposited data

How the results depend on the processing

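Under the 16 alternatives, 0 of the 10 retinoic acid genes and 0 of the 37 other tested genes of the pathway passed the adjusted threshold, with 35 of the 37 tested at a minimum of 10 counts in each sample. DESeq2 called 1 gene of all, Pkmyt1 (named after its values were seen), and edgeR called 0 under every alternative. Genes at an unadjusted p under 0.05 numbered 249, and 422 with no low-count filter, 421 without the libraries labelled wild type 3 and Morc2b-/- 3, and from 204 to 504 with 1 sample left out, of which wild type 3 gave 504, wild type 4 gave 466 and Morc2b-/- 1 gave 385. In the fit that took the replicate number as a block, the count was 572 and the smallest adjusted p of the 10 genes was 0.985. The numbers are not known to pair the samples, and the block changed no call.

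Stra8, Aldh1a1, Aldh1a2, Rdh10, Cyp26b1, Rara, Crabp1, Aldh1a3 and Dgat1 kept the sign of their log2 fold change under all 16 alternatives. With 1 sample left out, the log2 fold change ranged from -0.068 to 0.20 for Cyp26a1, from -0.33 to 0.12 for Rarg, from -0.042 to 0.20 for Crabp2, from -0.11 to 0.33 for Rdh11, from -0.021 to 0.16 for Aldh1a7, from -0.30 to 0.095 for Bco2, from -0.061 to 0.40 for Rbp7, from -0.0034 to 0.081 for Ep300, from -0.32 to 0.12 for Sycp3 and from -0.029 to 0.086 for Dmrt1. Without wild type 1 and Morc2b-/- 3, that of Rarg was 0.028, of Aldh1a7 -0.047 and of Rbp7 -0.033, and without wild type 3 and Morc2b-/- 3 that of Crabp2 was -0.027. The cause was not tested. With a prior count of 0.5, no permutation p of the 10 genes moved across 0.05. With 186 to 592 counts over 8 samples, Cyp26b1, Rara, Rarg and Crabp2 had the widest intervals together with Cyp26a1, and counting error and differences between samples limit what could be detected for them. The counts of Rara, Rarg and Cyp26b1 leave out reads shared by their transcripts.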

Other observations

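Across the 8 samples, the levels of the 10 retinoic acid genes were set beside the summed levels of 10 lists of cell type markers, which gave 100 relations of log2 values with exact permutation p-values adjusted over the 100 by the Benjamini-Hochberg method. The level of Rarg went with the differentiating spermatogonia markers, of which Sohlh1, Sohlh2 and Dmrtb1 were measured (Pearson r = 0.89, exact permutation p = 0.000223, adjusted p = 0.022). Spearman's rho was 0.93 (exact permutation p = 0.0022), and its adjusted p of 0.11 did not pass. Without the 2 samples farthest from the median of the marker sum, r was 0.91. The other 99 relations had an adjusted p above 0.05 for Pearson's r, and all 100 did for Spearman's rho. By permutation p, the next were Crabp2 and Cyp26a1 with the peritubular myoid markers, in opposite directions (r = 0.81 and -0.85, adjusted permutation p = 0.052 and 0.064, and r = 0.82 and -0.76 without the 2 farthest samples). The sum of the myoid markers is mostly Acta2. Crabp2 also had r = 0.84 with the epididymis markers and r = 0.86 with the spermatid markers (adjusted permutation p = 0.092 and 0.14), which without the 2 farthest samples was 0.44 and 0.77. Stra8 and the macrophage markers had r = -0.83 (adjusted permutation p = 0.14). Aldh1a1 and the Sertoli cell markers had r = 0.83 (adjusted permutation p = 0.14), and r = 0.78 without the 2 farthest samples. Crabp1 had r = 0.81 with the same markers and r = -0.80 with the leptotene and zygotene markers (adjusted permutation p = 0.14 for each). Without the 2 farthest samples these were 0.50 and -0.86. With the genotype means removed and permutations made within genotypes, Rarg and the differentiating spermatogonia markers had r = 0.90. The exact permutation p was 0.0052, or 0.17 adjusted over the 100. Stra8 with the macrophage markers (r = -0.83, exact permutation p = 0.0035) had the same adjusted p. So did Crabp2 with the peritubular myoid markers (r = 0.85, exact permutation p = 0.0052). There are only 576 such arrangements, so a single relation could not reach 0.05 after adjustment. Whether the relation of Rarg holds within genotypes is not decided by this test.

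Among the 45 pairs of the 10 genes themselves, the highest r was that of Cyp26b1 and Rara at 0.92 (rho = 0.83), which had an adjusted permutation p of 0.18 and fell to 0.45 without the 2 samples farthest from the median of Cyp26b1. The lowest was that of Cyp26a1 and Crabp2 at -0.76 (rho = -0.76, adjusted permutation p = 0.33), which was -0.50 without the 2 farthest samples. No pair passed the adjusted threshold.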
